A study of Homo sapiens with 6 samples.

Results

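The AP-1 and EGR immediate early genes are 10 genes for transcription factors: the FOS family (FOS, FOSB, FOSL1 and FOSL2), the JUN family (JUN, JUNB and JUND) and the EGR family (EGR1, EGR2 and EGR3). Members were the entries of the expression table under these 10 symbols. All 10 were found among 19223 gene symbols, with 22 of the 45006 transcripts, and each gene is represented by its most abundant transcript, judged by the mean of all 6 libraries. All 10 reached a value of 10 in at least 3 libraries and so were among the 12725 genes tested.

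RNA was sequenced from LoVo, a long-used human cell line derived from adenocarcinoma of the colon, to compare gene expression with and without DCC-2036, a tyrosine kinase inhibitor also known as rebastinib. The 3 Control libraries came from cells given vehicle for 48 h, and the 3 DCC-2036 libraries from cells that received the inhibitor at 2.5 μM over the same 48 h. All were grown in DMEM with serum and antibiotics per the labels, whereas the study's own text names another medium and a shorter treatment, so the time of sampling is uncertain. Nothing in the labels says that the 3 libraries of a group came from separate cultures, so the p-values measure the spread between these libraries, which may be technical.

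Values are a signal that the authors had already adjusted, so the reads behind each library are unknown. Summed over 1 transcript per symbol, the values came to 16342648, 16730230 and 16982729 in Control and to 17959762, 19112188 and 20078388 with DCC-2036. The values of the groups also differ in make-up. The 3 DCC-2036 libraries each had 39309 transcripts above 0, the same ones in all 3, and between 2061 and 2354 values above 0 but under 0.5. Control libraries had 37162, 37066 and 36928 transcripts above 0, of which 35158 were above 0 in all 3, and 0 such low values. How this arose, and how far it reaches into higher values, is unknown. No member fell below 9.25 in any library, and 29 of the tested genes held such a low value with DCC-2036. With a value of 10 asked of every library, which leaves those genes out, 1 member was again called higher and 4 lower. The DCC-2036 libraries varied more among themselves than the Control libraries did. The median SD of log2(value + 1) over the tested genes was 0.228 with DCC-2036 and 0.101 in Control. Replicates 1 and 3 of DCC-2036 lay farthest apart, with a median absolute log2 difference of 0.391, against at most 0.137 between any pair of Control libraries.

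The epithelial label was checked against marker genes. KRT8 was the most abundant of 8 colon epithelial markers, at 55603, 60058 and 64134 in Control and 92924, 106391 and 125395 with DCC-2036. EPCAM, a surface protein of epithelia, lay between 4524 and 5961 in all 6 libraries. CDX2, a factor of the intestinal lineage, lay between 213 and 365. Low or near 0 were 3 markers of differentiated colon cells: VIL1 was at most 4.12, LGALS4 at most 7.23 and KRT20 at most 64.1 in any library. Of 6 fibroblast markers the most abundant was COL1A1, and the summed level of the 6 was 440, 412 and 370 in Control and 516, 452 and 553 with DCC-2036. Of 7 blood and endothelial markers the most abundant was CD68, with a summed level of 239, 273 and 274 in Control and 258, 267 and 326 with DCC-2036. PTPRC, which marks blood cells, was listed at 0 in all 6 libraries. In RNA from whole cultures, fewer cells that express a gene and less RNA per cell cannot be told apart.

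FOS and JUN proteins pair through leucine zippers to form AP-1, which binds DNA at a short palindrome, and JUN proteins can also pair with one another or with ATF proteins. EGR proteins bind GC-rich sites through zinc fingers. Growth factors acting through ERK, and stresses acting through the JUN kinases, switch many of these genes on within minutes without new protein synthesis, while FOSL1 accumulates later and is known as a product of lasting ERK activity in colorectal cancer cells.

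JUN and EGR1 moved in opposite directions with DCC-2036. JUN rose and was the 1 member called higher, while EGR1, FOSL1, JUND and EGR3 fell. FOS, FOSB, FOSL2, JUNB and EGR2 did not pass the test. A gene was called at an adjusted p under 0.01 in limma, with Benjamini-Hochberg adjustment over all 12725 genes. The call of 1 of 10 members as higher stands beside 19.2% of all tested genes, and that of 4 of 10 as lower beside 22.7%. In either direction 5 of 10 members were called, or 50%, against 41.9% of all genes, so the share of members called was near the background. The median log2 fold change was −0.39 over the 10 members and −0.09 over all tested genes. With libraries scaled to equal totals the all-gene median was −0.28, and the middle members, FOS and EGR3, stood at −0.44 and −0.72. Higher calls then made up 33.7% of all calls in place of 45.8%. Member calls stayed at 1 higher and 4 lower in number.

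Part of these counts changed when 1 library was left out, a step that also leaves fewer libraries to test. Without Control replicate 1, 2 or 3, or without DCC-2036 replicate 2, 0 members and between 929 and 968 genes were called higher, against 2442 with all libraries. Without any 1 of those 4 libraries, or without DCC-2036 replicate 1, 2 members were called lower, FOSL1 and EGR1. Between 1502 and 1650 genes were called lower without 1 of those 4, against 2887 with all libraries. Without DCC-2036 replicate 1 the genes called lower rose to 3444, while the members called lower fell from 4 to 2. Without DCC-2036 replicate 3, 1 member and 2501 genes were called higher and 4 members and 3198 genes lower. The groups did not overlap in 6 of 10 members, against 71.1% of all tested genes.

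**Figure D1:**
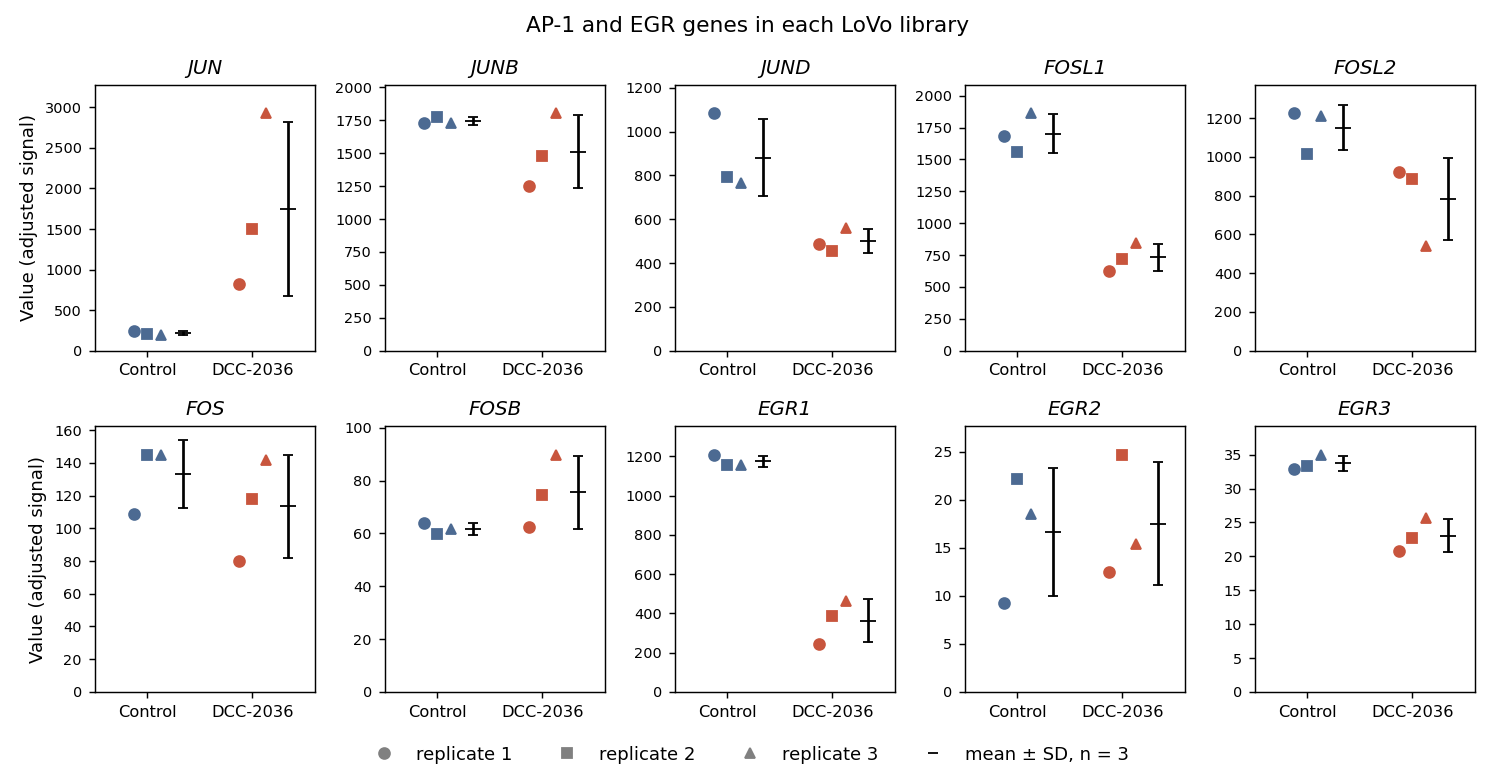
Values of the 10 genes in each library as adjusted signal, on linear axes that start at 0; each symbol is 1 library and the bar is the mean ± SD of 3. JUN lay at 198 to 245 in Control and 819 to 2925 with DCC-2036, and EGR1 at 1155 to 1208 and 242 to 461, with no overlap in either gene.

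JUN is the founding AP-1 gene and a target of its own product and of the JUN kinases. Its transcript NM_002228.3, the only one listed, is a single exon of 3540 bases on chromosome 1. Values were 245, 202 and 198 in Control and 819, 1497 and 2925 with DCC-2036. Every DCC-2036 library was above every Control library, but the 3 DCC-2036 values themselves differed widely. The mean was 215 ± 26.0 in Control and 1747 ± 1075 with DCC-2036 (SD, n = 3 each), an 8.14-fold difference. The log2 fold change was 2.83 with an SE of 0.43 and a 95% interval from 1.79 to 3.88 (adjusted p = 0.0022 in limma), the 62nd highest of all tested genes. On log2(value + 1) the SD of JUN was 0.169 in Control and 0.918 with DCC-2036. The limma fit takes the same variance for both groups and draws it toward that of other genes, so this interval does not rest on the JUN values alone. The call was narrowly lost without Control replicate 1, 2 or 3 or DCC-2036 replicate 2, where the adjusted p lay between 0.0101 and 0.0117 in limma, while the log2 fold change stayed between 2.37 and 3.29 whichever library was left out. An exact permutation test, two-sided, gave p = 0.1, the smallest that 3 libraries against 3 allow.

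The promoter of JUN is shown because JUN was the 1 member called higher. The set of RefSeq promoters used here (GRCh38.p14) held no entry for FOSL1 or EGR3. Windows of 300 bases, 250 before to 50 after a gene's start, were found for the other 8 of the 10 members, 10 windows in all. They were searched on both strands for the AP-1 site TGANTCA, the cAMP response element-like site TGACNTCA, the EGR site GCGNGGGCG and the CArG box that serum response factor binds. No matches overlapped one another in a member's window. Of 35116 windows of this length, the AP-1 site was in 7.71%, the cAMP response element-like site in 7.72%, the EGR site in 9.43% and the CArG box in 1.29%. The JUN window (chr1:58783998-58784297, minus strand) held 1 match, TGACATCA, from 67 to 60 bases before the start in RefSeq, in capitals here. That start lies 280 bases inside the single exon described above, as GENCODE 29 has it, so all 300 bases of the window fall within that exon and the match is not before the start of that transcript. JUND, at chr19:18281573-18281872 on the minus strand, is set beside it with its match TGACGTCA, from 200 to 193 bases before the start, in capitals.
JUN: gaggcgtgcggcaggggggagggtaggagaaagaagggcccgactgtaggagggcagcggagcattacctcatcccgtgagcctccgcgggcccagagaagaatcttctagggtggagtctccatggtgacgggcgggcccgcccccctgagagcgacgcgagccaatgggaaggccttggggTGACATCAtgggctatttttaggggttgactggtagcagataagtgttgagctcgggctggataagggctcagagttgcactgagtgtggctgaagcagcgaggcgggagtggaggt
JUND: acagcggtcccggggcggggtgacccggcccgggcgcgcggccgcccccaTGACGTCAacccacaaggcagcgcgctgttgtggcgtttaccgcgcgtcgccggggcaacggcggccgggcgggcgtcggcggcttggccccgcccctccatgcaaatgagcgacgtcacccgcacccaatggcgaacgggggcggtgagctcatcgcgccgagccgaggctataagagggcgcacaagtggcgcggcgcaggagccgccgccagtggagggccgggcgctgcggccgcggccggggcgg

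JUND, the JUN family member known for steady expression and for slowing growth in several cell types, is a single exon of 1863 bases on chromosome 19. It stood at 1083, 792 and 766 in Control and 489, 453 and 561 with DCC-2036. All DCC-2036 libraries were below all Control libraries, and Control replicate 1 was the highest. The log2 fold change was −0.80 with an SE of 0.17 (adjusted p = 0.0071 in limma), a fall to 56.9% of the Control mean. The adjusted p of JUND in limma was 0.0151 to 0.03 without Control replicate 1, 2 or 3 or DCC-2036 replicate 1 or 2. In limma it was 0.011 with median-of-ratios scaling, 0.0161 with no filter on low values and 0.0198 with the replicate number as block. The call of JUND was thus lost on leaving out most single libraries, which also leaves fewer libraries to test, and with that scaling, no filter or the block. The log2 fold change of JUND stayed between −0.89 and −0.64 whichever library was left out. Its 2 transcripts carry the same values.

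JUNB, which competes with JUN for partners, was at 1727, 1778 and 1730 in Control and 1253, 1479 and 1803 with DCC-2036. Control libraries were close together, and DCC-2036 replicate 3 was above all of them while the other DCC-2036 libraries were below. The log2 fold change of −0.22 with an SE of 0.15 did not pass the test (adjusted p = 0.227 in limma). It ranged from −0.36 to −0.10 with 1 library left out (lowest adjusted p = 0.0293 in limma). With equal totals it was −0.41 (adjusted p = 0.0247 in limma). JUNB shares 259 of its 1820 exonic bases with HOOK2 on the other strand, and no source used here says that reads were counted by strand, so reads of the pair cannot be told apart there. HOOK2 was at 917, 794 and 822 in Control and 274, 292 and 387 with DCC-2036.

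Levels of different genes are compared here after division by transcript length, which takes the deposited values as not yet divided by length. The sources used here do not state this. In the table, 590 groups of transcripts of 1 gene carried identical values in all 6 libraries, reaching 10 in at least 1, and 435 of these groups held transcripts of different length in GENCODE 29, as values divided by the length of each transcript would seldom do. Per length, the make-up of the JUN family differed between the groups. JUN supplied 4.32%, 3.91% and 3.94% of the family's summed value per 1000 bases in Control, and 19.6%, 28.6% and 39% with DCC-2036. JUND supplied 36.3%, 29.1% and 29% in Control and 22.2%, 16.4% and 14.2% with DCC-2036. JUNB was the largest part per length in each of the 6 libraries, at 46.8% to 67.1%, whereas in the undivided values JUN was above JUNB in DCC-2036 replicates 2 and 3. The family sum per 1000 bases was 1492 ± 95.2 in Control and 1593 ± 478 with DCC-2036 (SD, n = 3 each), a difference within the spread of the DCC-2036 libraries.

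Ratios of 2 genes within a library depend little on how that library was scaled, and 4 were compared on log2(value + 1). Their differences between the groups changed by at most 0.01 over the 3 scalings. The log2 ratio of JUNB to JUN was 2.81, 3.13 and 3.12 in Control and 0.61, −0.02 and −0.70 with DCC-2036. The log2 ratio of JUND to JUN was 2.14, 1.97 and 1.95 in Control and −0.74, −1.72 and −2.38 with DCC-2036. Neither ratio overlapped between the groups, and the differences were −3.06 and −3.63. Each had p = 0.1 in a two-sided exact permutation test, the smallest possible here, and 0.133 after adjustment over the 4 ratios.

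FOSL1, also called FRA1, is the FOS family member tied to motility and invasion in carcinoma cells. Values were 1681, 1557 and 1861 in Control and 628, 722 and 843 with DCC-2036. The groups were far apart, and the highest DCC-2036 library was below the lowest Control library. The mean was 1700 ± 153 in Control and 731 ± 108 with DCC-2036 (SD, n = 3 each). FOSL1 thus fell to 43% of its Control level, with a log2 fold change of −1.22 and an SE of 0.14 (adjusted p = 0.000902 in limma). This was the lowest p among the 10 members, and the call held without each library in turn, with adjusted p from 0.000654 to 0.00641 in limma. All 5 of its transcripts fell when transcripts were fitted as separate rows. Their log2 fold changes lay between −1.26 and −1.22, and their adjusted p in limma between 0.000798 and 0.00109. They are transcripts of 1 gene and were not taken as separate observations.

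FOSL2, also called FRA2, was at 1224, 1016 and 1212 in Control and 924, 888 and 539 with DCC-2036. The groups did not overlap, and DCC-2036 replicate 3 was the lowest. Its log2 fold change of −0.59 with an SE of 0.23 missed the threshold (adjusted p = 0.0589 in limma). It ranged from −0.73 to −0.34 with 1 library left out, and was −0.34 without DCC-2036 replicate 3. The log2 ratio of FOSL1 to FOSL2 was 0.46, 0.62 and 0.62 in Control and −0.56, −0.30 and 0.64 with DCC-2036. DCC-2036 replicate 3 lay above the Control libraries and the others lay below them, so the groups overlapped (exact permutation p = 0.4, two-sided). A larger fall of FOSL1 than of FOSL2 was therefore not shown.

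FOS, the classic partner of JUN, was at 109, 145 and 145 in Control and 80.0, 118 and 142 with DCC-2036. The groups overlapped, and the log2 fold change was −0.25 with a 95% interval from −0.82 to 0.31 (adjusted p = 0.376 in limma). It ranged from −0.44 to −0.02 with 1 library left out and was −0.44 with equal totals. FOSB was at 64.0, 59.6 and 61.7 in Control and 62.3, 74.7 and 89.8 with DCC-2036. These groups overlapped too, and the log2 fold change was 0.27 with a 95% interval from −0.09 to 0.63 (adjusted p = 0.152 in limma). It ranged from 0.14 to 0.40 with 1 library left out (lowest adjusted p = 0.0286 in limma). With equal totals it was 0.09. The other FOSB transcript had a log2 fold change of 0.24 (adjusted p = 0.186 in limma).

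FOSL1 was the largest part of the FOS family per length in every library, at 80.1%, 79.9% and 80.9% in Control and 66.3%, 67.6% and 74.8% with DCC-2036. In the undivided values FOSL2 was above FOSL1 in DCC-2036 replicates 1 and 2. FOSB made up 1.29% ± 0.0960 in Control and 3.18% ± 0.316 with DCC-2036 (SD, n = 3 each). The family sum per 1000 bases was 1257, 1168 and 1379 in Control and 567, 639 and 675 with DCC-2036, without overlap.

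**Figure D2:**
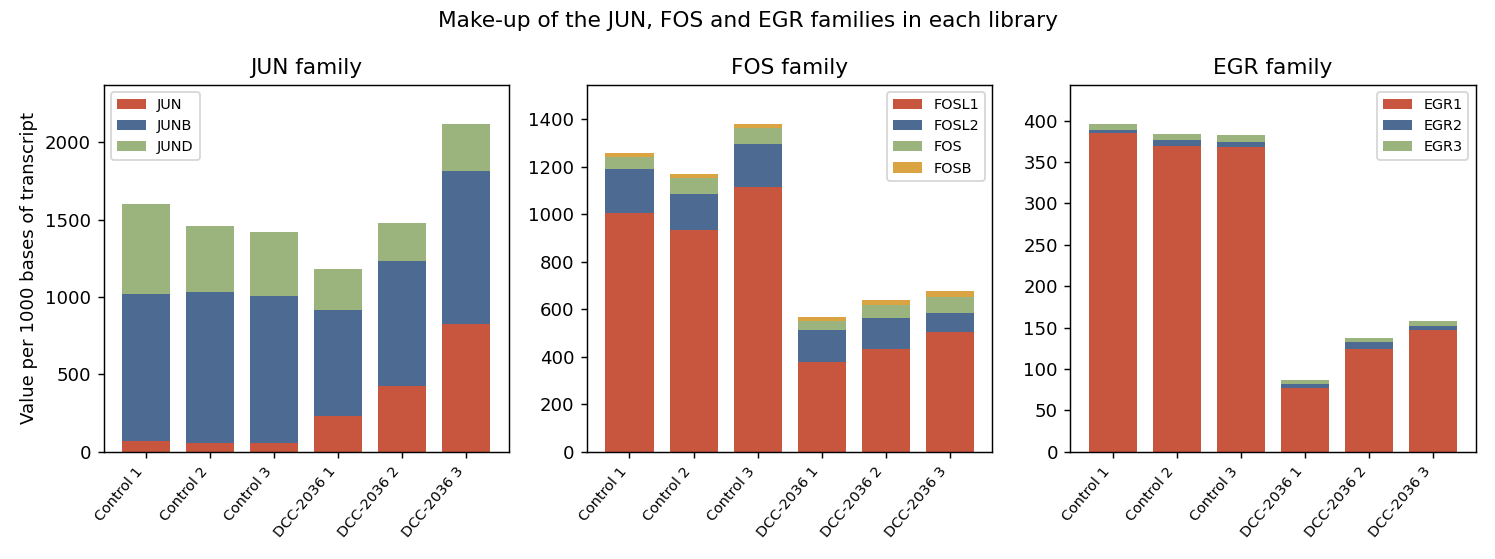
Value per 1000 bases of transcript in each library, stacked by gene within the JUN, FOS and EGR families. The JUN part of its bar is larger in the 3 DCC-2036 libraries (19.6% to 39%) than in Control (3.91% to 4.32%), and the FOS and EGR bars are lower with DCC-2036.

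EGR1 is a zinc finger factor that serum, growth factors and ERK switch on, and it has 2 exons on chromosome 5. Its values were 1208, 1157 and 1155 in Control and 242, 388 and 461 with DCC-2036. Control libraries were nearly level, and all DCC-2036 libraries were far below them. The mean was 1173 ± 30.1 in Control and 364 ± 112 with DCC-2036 (SD, n = 3 each), so EGR1 fell to 31% of its Control level, 3.23-fold lower. The log2 fold change was −1.74 with an SE of 0.24 and a 95% interval from −2.31 to −1.17 (adjusted p = 0.00146 in limma). It was the 695th lowest of all tested genes and kept its call without each library in turn, with adjusted p from 0.000432 to 0.00892 in limma.

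The EGR1 promoter window (chr5:138465229-138465528, plus strand, RefSeq, GRCh38.p14) is shown because it held 3 of the matches searched for, in capitals here. The EGR site lies from 198 to 190 bases before the start, and 2 CArG boxes lie from 105 to 96 and from 83 to 74 bases before it.
EGR1: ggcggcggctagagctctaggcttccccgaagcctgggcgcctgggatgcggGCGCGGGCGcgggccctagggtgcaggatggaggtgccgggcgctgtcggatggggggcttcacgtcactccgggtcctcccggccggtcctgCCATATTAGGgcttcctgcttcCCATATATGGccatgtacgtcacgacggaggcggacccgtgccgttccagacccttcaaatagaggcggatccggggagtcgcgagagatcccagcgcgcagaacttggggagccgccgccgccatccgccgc
CArG boxes were found in the windows of 2 of the 8 members with an entry, EGR1 and EGR2. EGR sites were also found in those of EGR1 and EGR2, the cAMP response element-like site in those of JUN and JUND, and the AP-1 site in that of FOSL2 alone. A match describes the letters of the window and does not show binding.

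EGR3, an EGR1 paralogue that is also induced by growth factors, was low, at 32.9, 33.3 and 35.0 in Control and 20.8, 22.7 and 25.7 with DCC-2036. Every DCC-2036 library was below every Control library. The log2 fold change was −0.53 with an SE of 0.11 (adjusted p = 0.00691 in limma). In size it lay between the quartiles of all tested genes, −0.76 and 0.48. The call of EGR3 was lost without Control replicate 1, 2 or 3 or DCC-2036 replicate 1 or 2 (adjusted p from 0.0112 to 0.0324 in limma). It was also lost with median-of-ratios scaling (adjusted p = 0.0174 in limma) and with a mean-variance trend (0.0892). The same held with no filter on low values (0.0158) and with the replicate number as block (0.0186). The log2 fold change of EGR3 stayed between −0.61 and −0.47 whichever library was left out. Its other 2 transcripts had log2 fold changes of −0.51 and −0.54 and missed the threshold (adjusted p = 0.0282 and 0.0191 in limma). EGR3 shares 164 of its 4336 exonic bases with a noncoding gene on the other strand that the table does not list, so its reads are uncertain there.

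EGR2, known for its part in myelin and in T cell anergy, was low, at 9.25, 22.2 and 18.5 in Control and 12.5, 24.7 and 15.4 with DCC-2036. The groups overlapped, and the log2 fold change was 0.10 with a 95% interval from −0.78 to 0.98 (adjusted p = 0.824 in limma). Its sign turned with equal totals, at −0.08. Its 5 transcripts had log2 fold changes from 0.10 to 0.34, and none passed (lowest adjusted p = 0.517 in limma).

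The EGR family sum per 1000 bases was 387 ± 7.31 in Control and 127 ± 37 with DCC-2036 (SD, n = 3 each), and EGR1 made up 89.5% to 97.3% of it in the 6 libraries. EGR1 was also set against FOS, since serum response factor drives both genes. The log2 ratio of EGR1 to FOS was 3.46, 2.99 and 2.99 in Control and 1.58, 1.71 and 1.69 with DCC-2036. All DCC-2036 values were below all Control values, by 1.48 on average on the log2 scale (exact permutation p = 0.1, two-sided, the smallest possible, and 0.133 adjusted over 4 ratios). DCC-2036 libraries, which spread widely in JUN, were close together in this ratio, with an SD of 0.07.

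**Figure D3:**
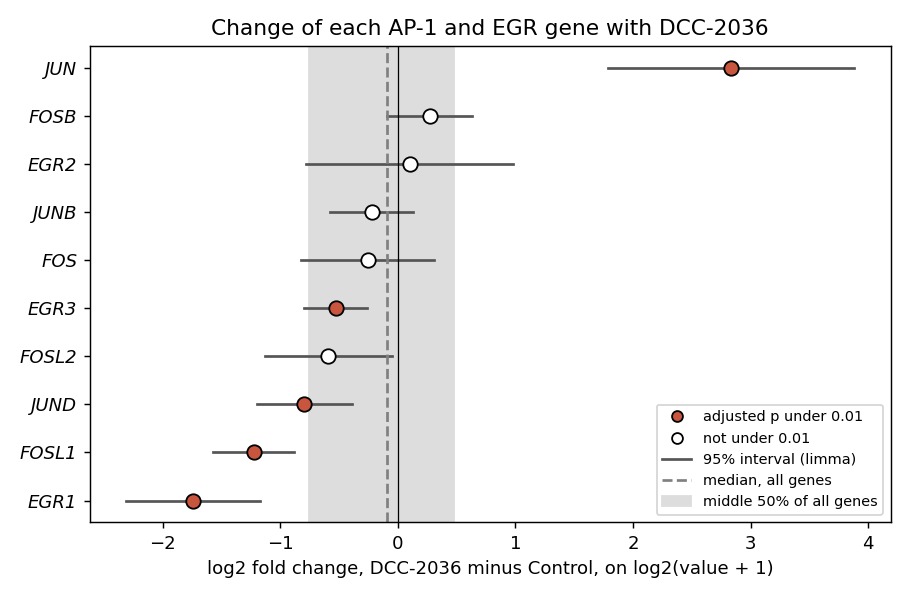
Log2 fold change of each gene, DCC-2036 minus Control, on log2(value + 1), with its 95% interval from limma; filled points had an adjusted p under 0.01, the dashed line is the median of all tested genes (−0.09) and the grey band holds the middle 50% of them (−0.76 to 0.48). JUN (2.83) lies above the band, and EGR1 (−1.74), FOSL1 (−1.22) and JUND (−0.80) lie below it. EGR3 (−0.53) was called but lies within the band.

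The order of the levels per length changed between the groups. In Control it was FOSL1, JUNB, JUND, EGR1, FOSL2, FOS, JUN, FOSB, EGR3 and EGR2 from the highest to the lowest mean value per 1000 bases, from 1019 ± 91.5 (SD, n = 3) for FOSL1 to 5.61 ± 2.25 (SD, n = 3) for EGR2. FOSL1 and JUNB overlapped in Control, as did FOS and JUN, and all other neighbours were separate. With DCC-2036 the order was JUNB, JUN, FOSL1, JUND, FOSL2, EGR1, FOS, FOSB, EGR2 and EGR3. JUN stood 7th in Control at 60.7 ± 7.34 (SD, n = 3) and 2nd with DCC-2036 at 493 ± 304 (SD, n = 3), and there it overlapped JUNB, FOSL1 and JUND. Within single DCC-2036 libraries JUN was 4th, 3rd and 2nd, and without replicate 3 its mean of 327 was below the 404 of FOSL1. By the mean of the undivided values, JUNB was 1st and JUN 6th in Control, and JUN was 1st and JUNB 2nd with DCC-2036. FOSL2 and EGR1 overlapped with DCC-2036, and so did EGR2 and EGR3.

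The 3 DCC-2036 libraries were not alike in these genes. For 7 of the 10 members, replicate 1 was the lowest and replicate 3 the highest of the 3 DCC-2036 libraries, an arrangement found in 33.6% of all tested genes. After scaling to equal totals the numbers were 7 of 10 and 23.2%. The members that did not follow it were FOSL2, JUND and EGR2. Summed values were also lowest in replicate 1 and highest in replicate 3 of DCC-2036.

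The lists that follow are to be read against all tested genes, of which 19.2% were called higher, 22.7% lower and 41.9% in either direction, with a median log2 fold change of −0.09. Single genes below were mostly picked by size of change and do not stand for their lists. The wider AP-1 and EGR family held 13 genes, of which 11 were tested, 3 rose and 2 fell, or 45.5% called, near the share of all genes. ATF3, a stress-induced partner of JUN, stood at 182, 176 and 175 in Control and 891, 1258 and 1519 with DCC-2036. All DCC-2036 libraries were several times higher, and the log2 fold change was 2.74 with an SE of 0.20 (adjusted p = 0.000265 in limma). JDP2, a repressor that pairs with JUN, averaged 152 ± 8.72 in Control and 518 ± 17.7 with DCC-2036 (SD, n = 3 each), and rose with a log2 fold change of 1.76 (adjusted p = 0.000193 in limma). ATF2, a JUN partner that binds the JUN promoter, rose by a log2 fold change of 0.66 (adjusted p = 0.0041 in limma). NAB2, a corepressor that EGR1 induces and that then curbs it, fell with EGR1. It was at 1477, 1570 and 1756 in Control and 377, 371 and 402 with DCC-2036, a log2 fold change of −2.06 with an SE of 0.11 (adjusted p = 0.000186 in limma). The related NAB1 had a log2 fold change of −0.52 (adjusted p = 0.00766 in limma). The calls of ATF3, JDP2 and NAB2 held without each library in turn. ATF2 lost its call without any 1 Control library or DCC-2036 replicate 2 (adjusted p up to 0.0206 in limma), and NAB1 without those or DCC-2036 replicate 1 (up to 0.0373). ATF2 also lost it with equal totals (0.0111), and NAB1 with median-of-ratios scaling (0.0186) and narrowly with upper-quartile scaling. The list's median was −0.06, against −0.09 over all genes, and its sign turned to 0.02 with median-of-ratios scaling.

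Serum response factor, its partners and the JUN kinases counted 11 genes, of which 10 were tested, 1 rose and 4 fell, with a median of −0.41, against −0.09 over all genes. Of the tested genes 50% were called, against 41.9% of all genes. SRF averaged 1224 ± 57.8 in Control and 1671 ± 94.1 with DCC-2036 (SD, n = 3 each), and rose with a log2 fold change of 0.45 (adjusted p = 0.00865 in limma). MKL2, a coactivator of SRF also called MRTFB, fell with a log2 fold change of −1.25 (adjusted p = 0.000535 in limma). The ETS factors ELK3 and ELK1, which join SRF at promoters and respond to ERK, fell with log2 fold changes of −0.90 (adjusted p = 0.00268 in limma) and −0.58 (adjusted p = 0.00627). MAPK9, a JUN kinase named after its values were seen, had −0.50 (adjusted p = 0.00946 in limma). MAPK8, the other JUN kinase tested, was at 634, 614 and 605 in Control and 696, 852 and 1271 with DCC-2036 and did not pass (adjusted p = 0.0634 in limma). Of the 5 called, MKL2 alone held without each library in turn. SRF and ELK1 lost their calls without any 1 Control library or DCC-2036 replicate 1 or 2 (adjusted p up to 0.0448 and 0.03 in limma). ELK3 lost its call without any 1 Control library or DCC-2036 replicate 2 (up to 0.0143), and MAPK9 without those or DCC-2036 replicate 3 (up to 0.0408). The SRF call was also lost with equal totals (adjusted p = 0.0604 in limma), where MAP2K4, named after its values were seen, was called lower. ELK1 and MAPK9 lost theirs with median-of-ratios scaling (0.0101 and 0.0139).

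Among 26 other immediate early genes, all tested, 5 rose and 6 fell, or 42.3% called, near the 41.9% of all genes. NR4A3, an orphan nuclear receptor, averaged 28.7 ± 7.21 in Control and 105 ± 18.4 with DCC-2036 (SD, n = 3 each), and rose with a log2 fold change of 1.85 (adjusted p = 0.000882 in limma). ARC, a cytoskeletal protein best known in neurons, had 1.80 (adjusted p = 0.00182), and RHOB, a small GTPase induced by stress, had 1.25 (adjusted p = 0.00404 in limma). SGK1 and TIPARP, named after their values were seen, rose with 1.14 and 0.59. PLK3, a stress-responsive kinase, averaged 523 ± 25.4 in Control and 130 ± 26.3 with DCC-2036 (SD, n = 3 each), and fell with a log2 fold change of −2.02 (adjusted p = 0.000304 in limma). GEM, a small GTP-binding protein, had −1.37 (adjusted p = 0.000344), and PPP1R15A, which reverses the block on translation in stress, had −1.36 (adjusted p = 0.000272 in limma). DUSP1, a phosphatase that turns off MAP kinases, BTG2 and ZFP36 also fell, with −0.90, −1.22 and −0.97, and were named after their values were seen. Calls of NR4A3, PLK3, GEM, PPP1R15A, DUSP1 and BTG2 held without each library in turn. ARC and SGK1 lost theirs without Control replicate 3 (adjusted p = 0.0101 and 0.0115 in limma). RHOB, TIPARP and ZFP36 lost theirs without any 1 Control library or DCC-2036 replicate 2 (adjusted p up to 0.0181, 0.0323 and 0.0204 in limma). NR4A1 was at 402 to 429 in Control and 406 to 425 with DCC-2036. The list's median was 0.11, and −0.08 with equal totals. With equal totals 4 rose and 9 fell: TIPARP lost its call (adjusted p = 0.0189 in limma), and IER5, IER5L and MCL1, named after their values were seen, were called lower. With median-of-ratios scaling TRIB1, named likewise, was called higher as well.

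Of 17 genes known to carry AP-1 sites and respond to AP-1, 11 were tested, 2 rose and 1 fell, with a median of 0.28, against −0.09 over all genes. The share called higher, 18.2%, was near the 19.2% of all genes, and the share called at all, 27.3%, was under their 41.9%. CD44, an adhesion receptor, averaged 7198 ± 233 in Control and 12833 ± 1518 with DCC-2036 (SD, n = 3 each), and rose with a log2 fold change of 0.83 (adjusted p = 0.00172 in limma). HBEGF, a ligand of the EGF receptor, had 0.85 (adjusted p = 0.00579 in limma). CCND1, which drives entry into S phase, fell with −0.77 (adjusted p = 0.00564 in limma). Each lost its call in part of the fits with 1 library left out. CD44 did so without Control replicate 2 or 3 (adjusted p up to 0.0114 in limma). HBEGF and CCND1 did so without any 1 Control library or DCC-2036 replicate 2 (up to 0.0261 and 0.0255). With median-of-ratios scaling PLAU, named after its values were seen, was called higher as well. The matrix metalloproteinases of the list, 6 genes, were all under the filter on low values.

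Of 7 genes known as EGR1 targets, all tested, 0 rose and 2 fell, with a median of −0.22, against −0.09 over all genes. The share called lower, 28.6%, was near the 22.7% of all genes, so the list as a whole is not shown to follow EGR1. These were NAB2, given above, and F3. F3, the tissue factor that starts coagulation, fell with a log2 fold change of −1.03 (adjusted p = 0.00542 in limma), and its mean was 1552 ± 87.9 in Control and 779 ± 225 with DCC-2036 (SD, n = 3 each). The F3 call was lost without any 1 Control library or DCC-2036 replicate 1 or 2 (adjusted p up to 0.0242 in limma).

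**Figure D4:**
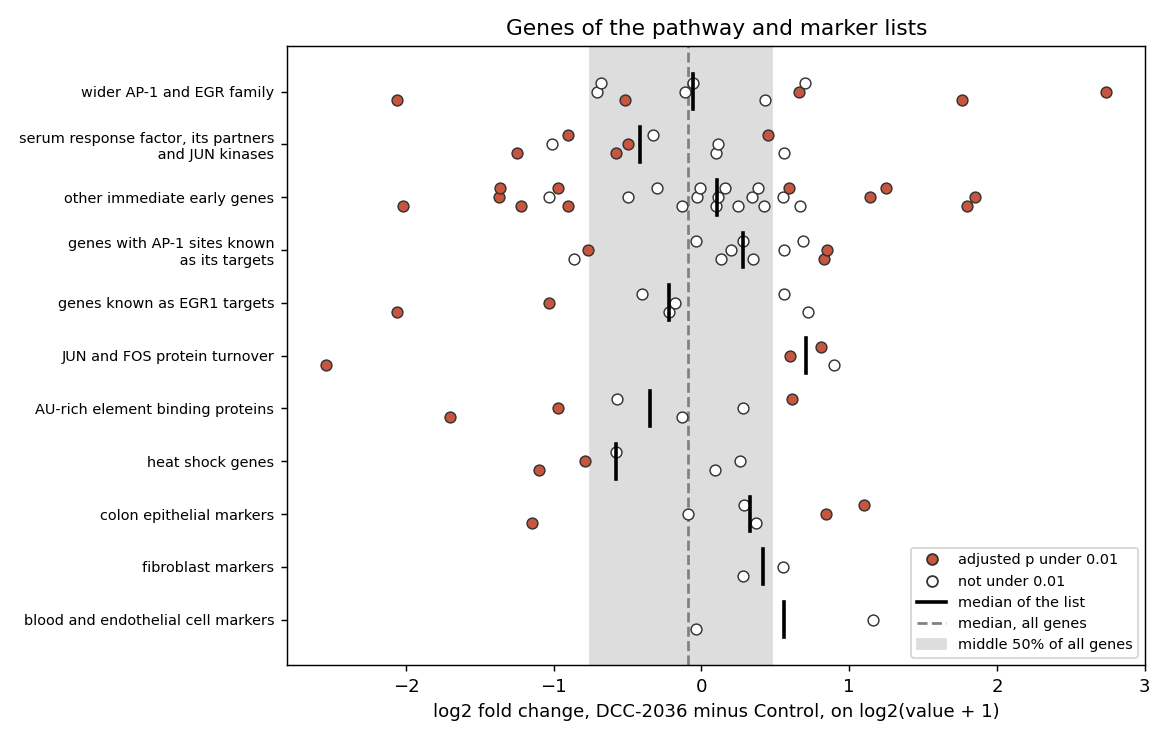
Log2 fold change of each tested gene of the 11 lists, DCC-2036 minus Control, on log2(value + 1); filled points had an adjusted p under 0.01 in limma, short bars are list medians, the dashed line and grey band are the median and the middle 50% of all tested genes. ATF3 (2.74) lies farthest right, and DET1 (−2.54) and NAB2 (−2.06) lie farthest left. DET1 was near the filter limit with DCC-2036.

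Of 4 genes for JUN and FOS protein turnover, all tested, 2 rose and 1 fell (19.2% and 22.7% of all genes), with a median of 0.71, against −0.09 over all genes. DET1 and RFWD2 (COP1) belong to a ubiquitin ligase that marks JUN for destruction. DET1 was at 65.8, 73.0 and 68.1 in Control and 16.5, 5.6 and 14.0 with DCC-2036, a log2 fold change of −2.54 with an SE of 0.36 (adjusted p = 0.00163 in limma). RFWD2 rose instead, with 0.81 (adjusted p = 0.000843 in limma), and so did the ligase ITCH with 0.60 (adjusted p = 0.00504). DET1 and RFWD2 kept their calls without each library in turn, and ITCH lost its call without any 1 Control library or DCC-2036 replicate 2 (adjusted p up to 0.0252 in limma) and with equal totals (0.0125).

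AU-rich element binding proteins govern the decay of many immediate early mRNAs. Of 6, all tested, 1 rose and 2 fell, or 50% called against 41.9% of all genes, with a median of −0.35, against −0.09. HNRNPD, also called AUF1, averaged 7381 ± 166 in Control and 2314 ± 612 with DCC-2036 (SD, n = 3 each), and fell with a log2 fold change of −1.70 (adjusted p = 0.000744 in limma), and kept its call without each library in turn. ZFP36, which promotes decay and also stands among the other immediate early genes, was at 635, 644 and 586 in Control and 266, 286 and 414 with DCC-2036. KHSRP, another decay factor, rose with 0.61 (adjusted p = 0.00616 in limma), and lost its call without any 1 Control library or DCC-2036 replicate 2 (adjusted p up to 0.0297) and with equal totals (0.0116).

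Of 5 heat shock genes, all tested, 0 rose and 2 fell, or 40% called against 41.9% of all genes, with a median of −0.58, against −0.09. DNAJB1 fell with a log2 fold change of −1.10 (adjusted p = 0.000711 in limma) and kept its call without each library in turn. HSPA1B had −0.79 (adjusted p = 0.00253 in limma), lost without any 1 Control library or DCC-2036 replicate 2 (up to 0.0144), and its reads may be shared with its near-identical copy HSPA1A.

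Of the 8 colon epithelial markers, 6 were tested, 2 rose and 1 fell, or 50% called against 41.9% of all genes, with a median of 0.33, against −0.09. CDH1, the E-cadherin of cell junctions, averaged 1605 ± 33.4 in Control and 3444 ± 133 with DCC-2036 (SD, n = 3 each), and rose with a log2 fold change of 1.10 (adjusted p = 0.000354 in limma), and kept its call without each library in turn. KRT8 had 0.84 (adjusted p = 0.00287) and KRT20 had −1.15 (adjusted p = 0.00427 in limma). The call of KRT8 was lost without any 1 Control library or DCC-2036 replicate 2 (up to 0.0154), and that of KRT20 without Control replicate 1 or 3 (up to 0.0182). Of 6 fibroblast markers 2 were tested and 0 called, with a median of 0.41, and COL1A1 was at 376 ± 20.4 in Control and 457 ± 55.3 with DCC-2036 (SD, n = 3 each), higher without overlap but not past the test (adjusted p = 0.0902 in limma). PDGFRB, under the filter and named after its values were seen, was also higher without overlap, at 3.64 to 5.3 in Control and 7.3 to 16.1 with DCC-2036. Of 7 blood and endothelial markers 2 were tested and 0 called in limma, with a median of 0.56, and CD68 was at 245 ± 18.8 (SD, n = 3) and 240 ± 37.3 (SD, n = 3). The other tested one, VWF, named after its values were seen, averaged 9.18 ± 4.55 in Control and 21.3 ± 10.1 with DCC-2036 (SD, n = 3 each), without overlap, and did not pass (log2 fold change 1.16, adjusted p = 0.0611 in limma). LYZ, under the filter and named likewise, averaged 6.04 ± 3.12 in Control and 15.5 ± 8.55 with DCC-2036 (SD, n = 3 each).

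The genes most like FOSL1 over the 6 libraries, by the root mean square difference of profiles centred on their own mean of log2(value + 1), were PLOD1 (0.0836), THOC6 (0.0841) and FANCF (0.0857). PLOD1 was at 5937, 5708 and 6419 in Control and 2117, 2575 and 3404 with DCC-2036, again with replicate 3 the highest of the DCC-2036 libraries.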

How the data were processed

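RNA of LoVo cells was measured in 3 Control and 3 DCC-2036 libraries, grouped by their titles. The authors deposited 1 signal per transcript and library, adjusted by a method not given in the sources used here, as are the aligner and build. The authors' own comparison, deposited as a log2 ratio of the groups with its p-value and q-value, was not used. The 10 members and the lists were chosen with earlier results of these data known. Of the listed genes, 2 are not reported here and are left out of the counts and medians.

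From the deposited values, 1 transcript per symbol was kept. Genes that reached 10 in 3 or more libraries were tested on log2(value + 1) with limma 3.58.1 in R 4.3.3, two-sided and without covariates, and called at an adjusted p under 0.01. Fold changes on this scale understate changes of low genes. The design named a count test for whole-number values, which these were not. Python 3.11.15 served for the rest: exact permutation tests in scipy 1.17.1, tables in pandas 2.3.3 and numpy 2.4.6, and plots in matplotlib 3.10.9. Transcript lengths, exons and overlapping genes came from GENCODE 29 through RefSeq accessions, and promoters from RefSeq. The code was tested on simulated data.

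The text names the 10 members, from each of 11 lists the called genes with the 3 highest and 3 lowest log2 fold changes (or the most abundant gene where 0 were called), and the 3 genes nearest to the member with the lowest p in centred profile. Other genes were named after their values were seen. Alternatives were leaving out 1 library at a time, 3 scalings, a stricter filter and none, 0.1 as pseudocount, a mean-variance trend, the replicate number as block, 0.05 as limit and transcripts as rows. For single list genes, scalings, left-out libraries, no filter and the block were added after seeing the data.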

Additional observations from a re-analysis of the deposited data

How the results depend on the processing

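Over the alternatives, 9 of 10 members kept the sign of their log2 fold change. EGR2, which was not called, turned to −0.08 with equal totals, −0.25 without Control replicate 1 and −0.16 without DCC-2036 replicate 2 (−0.25 to 0.34 over all left-out libraries), and was not tested where a value of 10 was asked of every library. FOSL1 and EGR1 were called under every alternative run. JUND and EGR3 lost their calls with median-of-ratios scaling and with no filter on low values, which left 2 members called lower in each. Without 1 library, members called higher ranged from 0 to 1 and lower from 2 to 4, and genes called higher from 929 to 2717 and lower from 1502 to 3444. Without DCC-2036 replicate 1, 2717 genes were called higher and 3444 lower, and without replicate 3, 2501 and 3198, while leaving out any of the other 4 libraries lost calls in both directions. With all transcripts as rows, 6379 and 7250 rows were called higher and lower, since more rows were tested.

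The replicate block gave 1202 genes called higher and 1909 lower, with 1 and 2 members. JUND and EGR3 lost their calls with this block (adjusted p = 0.0198 and 0.0186 in limma). The replicate numbers were not taken as a pairing. Same-numbered libraries correlated in their deviations from the group means at 0.081, −0.0352 and −0.00329. Of the 3 Control libraries, 1 correlated best with its own number.

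Of the 35 called list genes, all kept their sign, 27 their call in each scaling and 15 their call without each library in turn. With no filter on low values 14 of the 35 lost their calls, with adjusted p from 0.01 to 0.0206 in limma: NAB1, ATF2, SRF, ELK1, MAPK9, ZFP36, TIPARP, RHOB, HBEGF, CCND1, F3, ITCH, KHSRP and KRT20. With the replicate block 14 lost theirs (adjusted p from 0.0117 to 0.0315), the same ones but with HSPA1B in place of HBEGF. With equal totals, calls higher came to 2 for the wider AP-1 and EGR family, 0 for serum response factor and its partners, 4 for other immediate early genes, 1 for protein turnover and 0 for AU-rich element binding proteins, and calls lower to 5 for serum response factor and its partners and 9 for other immediate early genes. With median-of-ratios scaling, calls higher came to 6 for other immediate early genes and 3 for genes with AP-1 sites. Calls lower came to 1 for the wider AP-1 and EGR family with median-of-ratios and with upper-quartile scaling, and to 2 for serum response factor and its partners with median-of-ratios scaling. Medians with equal totals, where that of all genes was −0.28, were −0.25 for the wider family, −0.60 for serum response factor and its partners, 0.0941 for genes with AP-1 sites, −0.41 for EGR1 targets, 0.52 for protein turnover, −0.54 for AU-rich element binding proteins and 0.14 for colon epithelial markers. All 4 ratios kept their direction. Without read counts, the depth behind low values such as those of EGR2 is unknown.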
